A study of Mus musculus with 35 samples.

Results

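The 969 regions described here carried H3K27ac, acetylation of lysine 27 on histone H3, on day 3 of the reprogramming of mouse fibroblasts and had no H3K27ac peak in the fibroblasts, on day 9 or in embryonic stem cells (ESCs). They were chosen by their peaks: the peaks of the 12 H3K27ac libraries on chromosomes 1 to 19 and X were merged wherever they overlapped by 1 bp, which gave 179334 regions, and those with a peak in all 3 day 3 libraries and in none of the 2 fibroblast, 2 day 9 and 2 ESC libraries were kept. These were 0.540% of the merged regions and 969 of the 19543 regions with a peak in all 3 day 3 libraries. H3K27ac at those 4 stages therefore defines the regions and is only described below. The day 6 H3K27ac libraries and the 10 KLF4 libraries were not used to choose them, except that day 6 peaks entered the merging.

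The study followed KLF4 binding and H3K27ac by ChIP-seq from fibroblasts to pluripotency. Fibroblasts of a C57BL/6 x 129 background came from embryos with a doxycycline-inducible cassette of the reprogramming factors OCT4, KLF4, SOX2 and MYC (OKSM) in Col1a1 and the M2rtTA activator in Rosa26, so that every cell from day 3 to day 9 carried the transgenic KLF4 beside its own gene. The MEF libraries (mouse embryonic fibroblasts) were of these cells, unsorted and without doxycycline; those of day 3, day 6 and day 9 were of cells in ESC medium to which doxycycline (1 µg/ml) and ascorbic acid (50 µg/ml) had been added. Day 3 cells were unsorted, whereas day 6 and day 9 cells had been sorted for the surface antigen SSEA1, so the passage of time and the choice of cells cannot be told apart after day 3. The ESCs were of the V6.5 line, a separate line without the cassette, in serum and LIF for H3K27ac and for 2 KLF4 libraries, and with the 2i inhibitors (1 µM MEK inhibitor and 3 µM GSK3 inhibitor) for 2 further KLF4 libraries. Each of the 5 KLF4 stages, the 3 reprogramming days and the 2 ESC media, was represented by 2 libraries, and KLF4 in fibroblasts was not analysed here.

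H3K27ac is laid down by the acetyltransferases p300 and CBP and marks active promoters and enhancers. KLF4 is a zinc finger protein that binds GC-rich CACCC-type sequences, and in fibroblasts made to express it together with OCT4, SOX2 and MYC it reaches many sites that it does not occupy in ESCs. Early reprogramming is known for a wave of short-lived changes at regulatory elements, and regions acetylated for a few days only are one form of it.

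The lists held between 17493 and 88347 H3K27ac peaks and between 21129 and 34640 KLF4 peaks, and no read depth is given in the sources used here. The 3 day 6 H3K27ac lists were the shortest (17493 to 22462 peaks) and the fibroblast and ESC lists the longest (81231 to 88347), so a region can lack a peak and still carry signal. Of 10 fibroblast marker genes, all 10 had an H3K27ac peak within 2.5 kb in both MEF libraries, 7 or 8 on day 3, 3 or 4 on day 6, 4 or 5 on day 9 and 5 or 6 in ESCs. Of 10 pluripotency markers, 2 had one in the MEF libraries, 2 or 3 on days 3 and 6, 7 on day 9 and 10 in ESCs. Of 5 blood markers, 4 had a peak in the MEF libraries, 2 or 3 on day 3, 0 or 1 on day 6, 2 on day 9 and 3 in ESCs; of 4 endothelial markers these were 4, 1 or 2, 1, 1 to 3 and 3, and of 5 epithelial markers 3, 2 to 4, 2 or 3, 5 and 5. Their part in the results was not tested.

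Promoters were rare among the regions. A promoter window, here the 300 bases from 250 before to 50 after a RefSeq start (build GRCm38.p6), was overlapped by 20 of the 936 regions on chromosomes with such windows, or 2.14%, against 42.5% of the 18944 day 3 regions there. The share was 1.28% with the regions moved by 1 Mb and 7.86% of all merged regions. In the comparison classes defined below it was also low. It was 4.09% in the regions of day 3 to day 9, 7.04% in the fibroblast regions and 10.4% in the ESC regions. The 20 windows belonged to 20 genes, 7 protein-coding and 13 long non-coding. The next 5 windows are printed because they show promoter sequence that such a region overlaps, in full or in part, with and without a KLF4 peak over the window on day 3. KLF4 had a peak over those of Fmod (fibromodulin, a collagen-binding proteoglycan of the matrix, chr1:134037004-134037303, + strand), Rgs12 (a regulator of G protein signalling, chr5:34998828-34999127, + strand) and Nxpe2 (a neurexophilin-like protein, chr9:48340849-48341148, − strand) in 1 day 3 library each, over that of the non-coding gene Gm39268 (chr8:122149954-122150253, − strand) in both, and over that of Galnt15 (an enzyme that starts O-linked glycans, chr14:32028853-32029152, + strand) in none. Each reads 5′ to 3′ on the strand of its gene, with every CACCC or its reverse complement GGGTG in capitals.
Fmod: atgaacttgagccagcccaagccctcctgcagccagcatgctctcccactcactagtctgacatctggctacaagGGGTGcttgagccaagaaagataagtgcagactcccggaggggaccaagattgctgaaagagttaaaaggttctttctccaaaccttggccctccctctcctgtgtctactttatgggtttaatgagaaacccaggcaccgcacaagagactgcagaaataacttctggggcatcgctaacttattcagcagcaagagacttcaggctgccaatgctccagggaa
Rgs12: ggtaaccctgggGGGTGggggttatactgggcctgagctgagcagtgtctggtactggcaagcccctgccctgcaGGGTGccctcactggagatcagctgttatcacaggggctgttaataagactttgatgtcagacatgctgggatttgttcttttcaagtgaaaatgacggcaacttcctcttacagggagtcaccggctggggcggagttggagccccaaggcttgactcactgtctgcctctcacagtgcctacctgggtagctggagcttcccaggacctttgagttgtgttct
Nxpe2: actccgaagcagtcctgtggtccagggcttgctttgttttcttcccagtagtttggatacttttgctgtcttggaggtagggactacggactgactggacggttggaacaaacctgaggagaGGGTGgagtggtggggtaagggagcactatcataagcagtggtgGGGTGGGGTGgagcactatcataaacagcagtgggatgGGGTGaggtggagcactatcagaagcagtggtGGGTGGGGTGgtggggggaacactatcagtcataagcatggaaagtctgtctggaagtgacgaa
Gm39268: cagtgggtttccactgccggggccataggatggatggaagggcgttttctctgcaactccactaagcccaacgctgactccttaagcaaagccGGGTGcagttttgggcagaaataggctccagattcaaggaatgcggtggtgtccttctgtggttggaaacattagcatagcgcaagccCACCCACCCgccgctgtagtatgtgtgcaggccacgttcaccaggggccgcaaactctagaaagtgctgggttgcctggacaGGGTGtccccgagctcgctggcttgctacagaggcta
Galnt15: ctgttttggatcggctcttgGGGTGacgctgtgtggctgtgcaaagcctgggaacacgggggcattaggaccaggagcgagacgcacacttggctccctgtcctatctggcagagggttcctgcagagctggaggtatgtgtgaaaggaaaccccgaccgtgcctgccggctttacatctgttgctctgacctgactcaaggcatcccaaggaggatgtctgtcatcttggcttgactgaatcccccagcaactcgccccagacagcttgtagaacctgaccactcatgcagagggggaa

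The Nxpe2 window held 6 matches to CACCC on either strand, that of Gm39268 held 4, that of Rgs12 held 2, and those of Fmod and Galnt15 held 1 each. Matches were counted over the whole window, also where the H3K27ac region does not reach. The Galnt15 region begins at chr14:32028882, past the match in its window. The Gm39268 region ends at chr8:122150148 and leaves out the first match printed. The number of matches and KLF4 did not always go together in the windows not printed. That of Gm39871 had a KLF4 peak over it in 1 day 3 library and 0 matches. Those of Gm5111 and Gm16311 held 2 matches each and had no KLF4 peak over them. Across the 20 windows, 14 (70.0%) held CACCC, against 57.7% of all 32619 windows and 63.1% of the 11316 windows overlapped by day 3 regions. The AP-1 letters TGANTCA were in 3 (15.0%), against 7.85% of all windows; the SOX letters ACAATG in 3 (15.0%), against 12.2%; the TEAD letters GGAATG in 5, or 25%, against 14.6%; and the POU octamer ATGCAAAT in 0, against 1.75%. Both strands were searched, and none of the 5 motifs contains another. With 20 windows, 1 window is 5.00 percentage points, and these shares are descriptions. Median GC content was 49.7% in the 20 windows, 62.0% in those of all day 3 regions and 53% in all windows.

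The regions were narrower and weaker on day 3 than the comparison classes, and of middling strength within the day 3 lists. Their width ran from 312 to 4159 bp with a median of 817 bp and a total of 0.911 Mb. The median was 542 bp over all merged regions and 2344 bp over all day 3 regions. The comparison classes were wider: the 1094 regions of day 3 to day 9 (peaks in all day 3 and day 9 libraries and no MEF or ESC library) had a median of 1930 bp, the 1767 fibroblast regions lost after day 3 (all MEF and day 3 libraries, no day 9 or ESC library) 2154 bp, and the 1110 ESC regions gained by day 3 (all day 3 and ESC libraries, no MEF library) 2682 bp. The highest peak of each region had a median deposited fold enrichment of 3.16 in day 3 library EA-3702_1, 3.66 in DG-3458_1 and 3.89 in DG-3458_2. By deposited score the median region stood at percentile 49.7, 50.0 and 41.8 of those lists, and only 10, 14 and 5 of the 969 fell in the top 10%. The other classes stood higher in each list. Their percentiles were 66.9, 64.8 and 56.1 in the regions of day 3 to day 9 and 56.8, 58.5 and 48.9 in the fibroblast regions. In the ESC regions they were 67.8, 64.8 and 56.1. The weakest of the 969 by mean rank, assigned to Dscam, had folds of 1.98, 2.33 and 2.92.

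Values on each side of the rule were close. The 467 regions with a peak in all 3 day 3 libraries and in exactly 1 excluded library had a median day 3 −log10 p of 5.49, against 5.15 in the chosen regions. Of these 467, 119 and 147 were kept out by 1 of the day 9 libraries, 78 and 75 by 1 of the MEF libraries and 22 and 26 by 1 of the ESC libraries. A further 1821 regions with no excluded library had a peak in 2 of the 3 day 3 libraries, with a median −log10 p of 4.01. When only the top 50% of each H3K27ac list by score was used, the rule found 598 regions, and 200 of the 969 overlapped one of them; with all lists limited to an equal number of top peaks it found 810, overlapped by 112 of the 969; at a deposited q-value of at most 0.01 it found 541, overlapped by 429 of the 969.

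The 12 highest-ranked regions had folds between 5.49 and 13.8 in single libraries. First was a region in Fndc3b, a membrane protein with fibronectin repeats, at chr3:27454495-27456462, with folds of 13.8, 11.5 and 10.4 in EA-3702_1, DG-3458_1 and DG-3458_2 (mean 11.9 ± 1.78, SD, n = 3). The region 95.8 kb from Phactr1, a regulator of actin and of protein phosphatase, at chr13:42583230-42584621, had 13.2, 9.65 and 12.3 (11.7 ± 1.86). These 2 stood highest in library EA-3702_1, and in both KLF4 also had a peak in each day 3 library and in no later one.

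A region 27.5 kb from Hrh1, a histamine receptor gene, at chr6:114368540-114370463 had folds of 10.7, 12 and 10.1. One at chr1:54627343-54630530, 14.8 kb from Ankrd44, a subunit of a protein phosphatase, had 11.1, 8.88 and 9.22, and one 7.21 kb from Rab11fip2, which acts in endosome recycling, at chr19:59884508-59886293 had 11.5, 8.65 and 8.44. Pairs of neighbours were common among the 12. One pair lay over 350 kb from its nearest protein-coding gene, Gcfc2, at chr6:81553065-81554657 (9.58, 8.19 and 9.99) and chr6:81554738-81557268 (7.89, 7.77 and 9.06), and neither region had a KLF4 peak in any library.

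Another pair was in Npsr1, the neuropeptide S receptor, at chr9:24313224-24314873 (8.60, 8.03 and 8.77) and chr9:24314969-24316810 (7.14, 8.24 and 5.66). The other 3 of the 12 were in Tshz2, a zinc finger gene (6.86, 5.49 and 5.82), 195 kb from Myom2, a sarcomere protein (9.61, 9.31 and 6.5), and 117 kb from Prkd1, protein kinase D (8.0, 6.65 and 9.09). Within each of the 12 the 3 libraries differed by less than 2.00-fold, and no one library was the highest throughout.

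**Figure D1:**
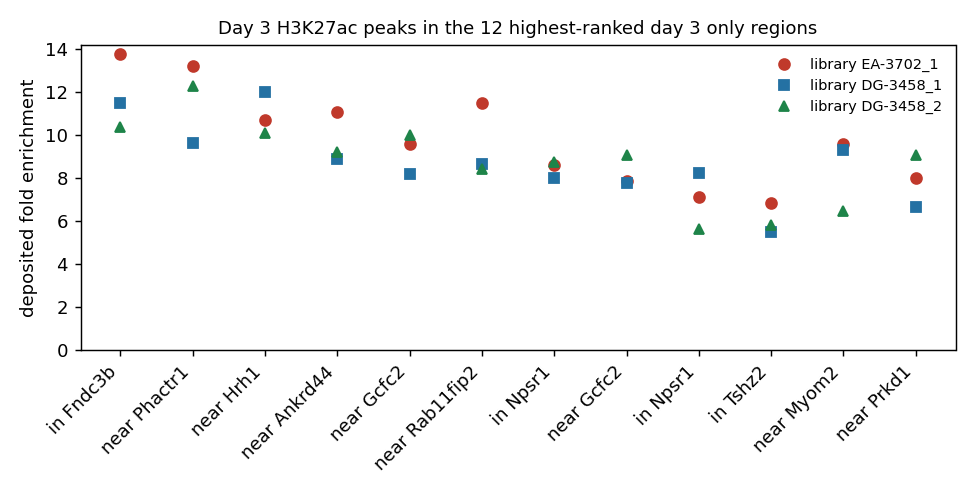
Deposited fold enrichment (vertical axis, no unit) of the highest day 3 H3K27ac peak in each of the 12 day 3 only regions with the best mean rank, 1 point per day 3 library. The region in Fndc3b is first with 13.8, 11.5 and 10.4, and the lowest point is 5.49 in the region in Tshz2.

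On day 6 the regions had almost no H3K27ac peaks. A peak was present in 13 (1.34%), 7 (0.722%) and 44 (4.54%) of the 969 in DG-3458_1, DG-3458_2 and EA-3702_1. The mean was 2.2% ± 2.05 (SD, n = 3). It was 1.08% without the day 6 library EA-3702_1, and 3.45% with the regions chosen without the day 9 library EA-3702_2. With the day 6 peaks moved by 1 Mb, the shares were 0.619%, 0.722% and 1.24%, so the DG-3458_2 share equalled that of its moved peaks. Peak names inside the 2 day 6 DG-3458 lists are numbered the other way round from the sample titles; the lists were assigned as deposited, and the values of these 2 libraries may be exchanged. The regions of day 3 to day 9 had peaks in 31.1%, 22.8% and 63.5%, the ESC regions in 51.1%, 43.5% and 72.4%, and the fibroblast regions in 2.43%, 0.962% and 4.81%. In each library the day 3 only regions were thus the lowest of the 4 classes and close to the fibroblast regions, without matching for width or day 3 strength. The fibroblast regions are wider, and their shares with moved peaks were 2.15%, 1.75% and 3.00%. Their DG-3458_2 share therefore lay below that of its moved peaks. No test was run on these shares; a sign-flip test over 3 libraries could not pass 0.05.

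In all, 60 regions (6.19%) had a peak in at least 1 day 6 library, against 70.2% of all day 3 regions. Of the 969, 4 (0.413%, against 57.7%) had one in at least 2 libraries and 0 (against 48.1%) in all 3. The 4 were named after their values were seen. They were in Rora, a nuclear receptor of lipid metabolism and circadian rhythm (chr9:68852501-68853778, day 3 folds 7.51, 5.89 and 7.52), Ipo11, an importin (4.48, 5.65 and 6.17), Sdk1, a cell adhesion protein (6.13, 4.66 and 5.53), and Prickle1, of planar cell polarity (3.25, 4.32 and 3.25). All 4 had a KLF4 peak in at least 1 day 3 library, as had 43.2% of the 969 and 72.2% of all day 3 regions. When all 12 H3K27ac lists were limited to the same number of top peaks, the mean day 6 share of the regions then chosen was 15.6% ± 9.79.

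**Figure D2:**
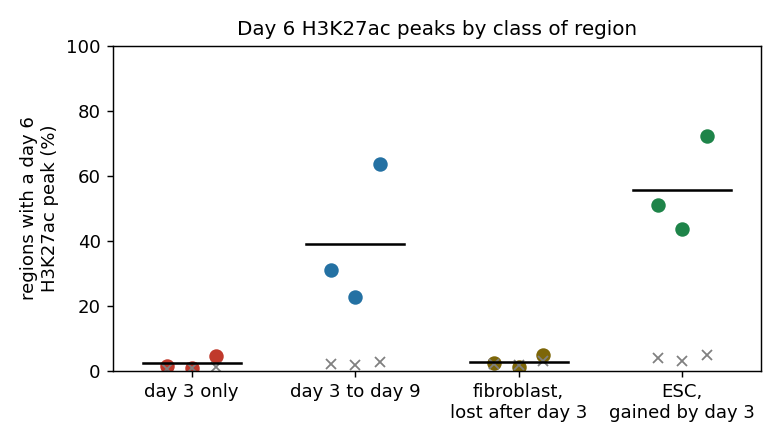
Percent of regions (vertical axis) with a day 6 H3K27ac peak in 4 classes of region, 1 coloured point per day 6 library, the bar at their mean, and grey crosses for the same peaks moved by 1 Mb. The day 3 only regions lie between 0.722% and 4.54%, the fibroblast regions beside them, and the other classes at 22.8% or more.

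KLF4 peaks lay over more of the regions on day 3 than later, and at every stage over a smaller share of them than of all day 3 regions. The share with a KLF4 peak was 40.9% and 19.1% in the day 3 libraries EA-3702_1 and DG-4040_1, 5.88% and 7.22% on day 6, 1.96% and 1.75% on day 9, 0.310% and 1.44% in ESCs and 0.310% and 0.826% in ESCs in 2i. Both day 3 libraries lay above all 8 others, and the pair differed from each other by more than any other pair. KLF4 peaks moved by 1 Mb overlapped between 0.826% and 1.86% of the regions, so the day 9 shares were at most 1.96% against 1.03% to 1.24%, and those of ESCs were no higher than their moved peaks. The stage means were 30.0% ± 15.4, 6.55% ± 0.949, 1.86% ± 0.146, 0.877% ± 0.803 and 0.568% ± 0.365 (SD, n = 2 each). Of all 19543 regions with H3K27ac in the 3 day 3 libraries, KLF4 had a peak over 69.6% and 51.0% in the day 3 libraries, and the stage means were 60.3% ± 13.2, 50.1% ± 7.87, 45.9% ± 1.81, 41.1% ± 9.16 and 40.3% ± 1.25 in the same order.

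The 5 stages differed (F between stages of 6.58, exact permutation of the stage labels, two-sided, p = 0.00529, or 0.0159 adjusted over 9 tests). The F was 799 without the day 3 KLF4 library DG-4040_1 and 172 without EA-3702_1, each of which leaves 1 library on day 3. Day 3 was 27.5 percentage points above the 8 other libraries (30.0% ± 15.4 against 2.46% ± 2.62; exact permutation p = 0.0222, the smallest that 45 labelings allow, adjusted 0.0381). Its size turned on how regions and overlaps were set: it was 11.9 points where a KLF4 peak had to share 50% of the shorter interval, 14.2 with each region taken as 500 bp about its midpoint and 48.2 with membership from the top 50% of the H3K27ac lists. Over days 3, 6 and 9 the share fell by 4.69 percentage points per day (6 libraries, exact permutation p = 0.0222, the smallest that 90 labelings allow, adjusted 0.0381). That slope was -2.04 with the 50% overlap, -2.44 with regions as 500 bp, -7.90 with membership from the top 50%, -2.69 without the day 3 KLF4 library EA-3702_1 and -2.67 without the day 3 H3K27ac library EA-3702_1. All 9 tests use 1 value per library, and their p-values cover only the spread between these libraries. Libraries that share a code in their sample titles, such as EA-3702, are called a batch here. What the codes stand for is not given in the sources used here. Within batch EA-3702, which holds 5 of the 10 libraries, the share was 40.9% on day 3, 5.88% on day 6, 1.96% and 1.75% on day 9 and 0.310% in 2i. Within DG-4040 it was 19.1% on day 3 and 7.22% on day 6. An exact permutation within batches left the day 3 contrast at p = 0.100, the smallest the 10 labelings then possible allow. The difference was 16.6 points without the day 3 KLF4 library EA-3702_1 and 38.4 points without DG-4040_1, each with an exact permutation p of 0.111, the smallest that 1 library against 8 allows, so neither could pass; without the day 3 H3K27ac library EA-3702_1 it was 15.8 points (exact permutation p = 0.0222). Leaving out any 1 of the 8 later libraries, so that a stage has 1 library, gave the test over 5 stages an exact permutation p of 0.112 to 0.119. The slope was -4.69 points per day without either day 6 library, with an exact permutation p of 0.0667, the smallest then possible, and -5.15 and -5.12 without 1 of the day 9 libraries (exact permutation p = 0.100 each).

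**Figure D3:**
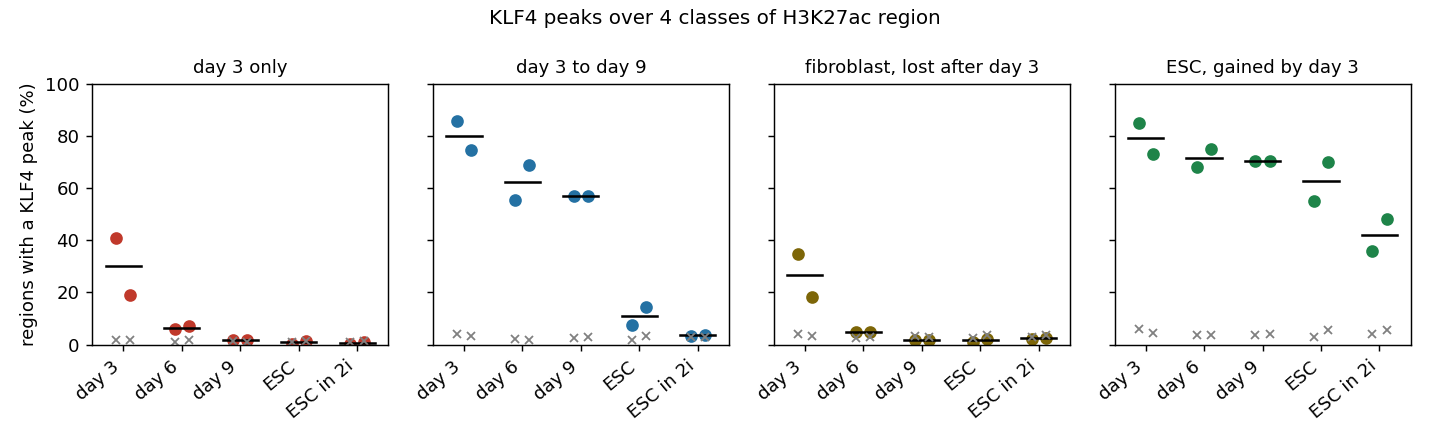
Percent of regions with a KLF4 peak (vertical axis) by stage (horizontal axis) in 4 classes of H3K27ac region, 1 coloured point per library, bars at the mean of the 2 libraries and grey crosses for KLF4 peaks moved by 1 Mb. In the day 3 only regions the share drops from 40.9% and 19.1% on day 3 to under 2.00% from day 9 on.

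Regions acetylated on day 9 as well had KLF4 peaks more often in every library. Their mean share was 80.1% on day 3, 62.2% on day 6, 56.8% on day 9, 11% in ESCs and 3.56% in 2i, and the day 3 only regions were lower in 10 of 10 libraries, with a mean difference of -34.8 percentage points (exact sign-flip permutation test, p = 0.00195, the smallest that 10 libraries allow, adjusted 0.00879). That difference was -23.9 points among regions of 500 to 1500 bp and -25.2 among regions of both classes with no day 6 H3K27ac peak. The classes were not matched for day 3 strength. The gap itself varied over the stages (F = 44.5, exact permutation p = 0.0254, adjusted 0.0381), from means of -50.1, -55.6 and -55.0 points on days 3, 6 and 9 to -3.00 points in 2i; permuted within batches that p was 0.150. The ESC regions gained by day 3 had 79.1% on day 3 and 62.6% in ESCs, and the day 3 only regions were again lower in 10 of 10 libraries, with a mean difference of -57.2 points (p = 0.00195, adjusted 0.00879, same exact test). It was -27.3 points among regions of 500 to 1500 bp, -28.3 among regions of both classes with no day 6 H3K27ac peak and -37.4 with each region taken as 500 bp about its midpoint. That gap did not pass the threshold for a difference over stages (F = 5.65, exact permutation p = 0.0540, adjusted 0.0694), but it passed 0.05 in 11 of its 34 alternatives. Among these were the permutation within batches (exact p = 0.0167) and the fits without 1 of the KLF4 ESC libraries (exact permutation p = 0.0423 without EA-2697_1 and 0.0317 without EA-2643_1), without 1 of the H3K27ac ESC libraries (0.0455 and 0.0434) and without the day 3 H3K27ac library DG-3458_1 (0.0392).

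The fibroblast regions lost after day 3 came nearest. They were also wider. KLF4 peaks moved by 1 Mb overlapped stage means of 2.72% to 3.65% of them, against 1.14% to 1.75% of the day 3 only regions. The mean share of the fibroblast regions was 26.5% on day 3, 4.92% on day 6, 1.84% on day 9, 1.67% in ESCs and 2.38% in 2i. Those of day 9, ESCs and 2i lay below their moved peaks (3.06%, 3.17% and 3.28%). Among regions of 500 to 1500 bp the mean difference was 1.35 points (exact sign-flip permutation p = 0.270). With widths not matched, the day 3 only regions were higher in 5 libraries and lower in 5 (mean difference 0.508 points, exact sign-flip permutation p = 0.586, adjusted 0.586). By stage the difference was 3.49 ± 3.47 points on day 3, 1.63 ± 1.03 on day 6, 0.0183 ± 0.186 on day 9, -0.792 ± 0.0377 in ESCs and -1.81 ± 0.115 in 2i (SD, n = 2 each), which did not pass the test over stages (F = 3.32, exact permutation p = 0.0889, adjusted 0.100). Both outcomes turned on how an overlap was counted and on single libraries. Where a KLF4 peak had to share 50% of the shorter interval, the day 3 only regions had 13.2% ± 5.62 on day 3 and the fibroblast regions 23.5%, and the mean difference over libraries was -3.00 points (exact sign-flip permutation p = 0.00195). Without 1 of the day 3 H3K27ac libraries it was -2.02 points (EA-3702_1, exact sign-flip permutation p = 0.00195), -0.989 (DG-3458_1, p = 0.0117) and -0.556 (DG-3458_2, p = 0.0645), so that the day 3 only regions were the lower class past 0.05 in the first 2 of these. It was -0.0965 points without the KLF4 library EA-3702_1 of day 3 (exact p = 0.832), and the test over stages passed 0.05 in 14 of its 34 alternatives.

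KLF4 peaks lay mostly at the edges of the day 3 only regions. Of the 396 regions with a KLF4 peak in EA-3702_1, the midpoint of the highest peak was inside the region in 153 (38.6%), and of the 185 in DG-4040_1 in 85 (45.9%). In the other 3 classes it was inside in 84.7% to 91.2% and 87.7% to 94.0%. The other classes are wider; among regions of 500 to 1500 bp in every class the shares were 31.0% and 37.9% in the day 3 only regions against 49.6% to 61.6% and 56.8% to 66.1% in the other classes. The highest peak's midpoint was within 200 bp of the region's in 15.7% and 19.5%, against 43.1% and 43.3% in the regions of day 3 to day 9, 26.7% and 26.3% in the fibroblast regions and 33.2% and 34.6% in the ESC regions, without matching for width. The peaks of the day 3 only regions thus stood on both sides of the centre. This pattern was noticed in these data and carries no test.

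In 243 regions the midpoint of the highest EA-3702_1 peak was outside: in 163 of them it lay in a gap of at most 1000 bp between 2 merged H3K27ac regions, in 48 in another H3K27ac region and in 32 in neither. In DG-4040_1 these were 69, 14 and 17 of 100 regions. A peak between 2 members counts here for each. A single KLF4 peak touched 2 or more of the 969 regions in 41 of 372 cases in EA-3702_1 and in 9 of 182 in DG-4040_1. The pair in Npsr1 is one: the regions are 95 bp apart, and a KLF4 peak of EA-3702_1 at chr9:24314761-24315131, with a fold of 3.46, spans the gap. Members of such a pair share their KLF4 peak and are not independent of each other.

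**Figure D4:**
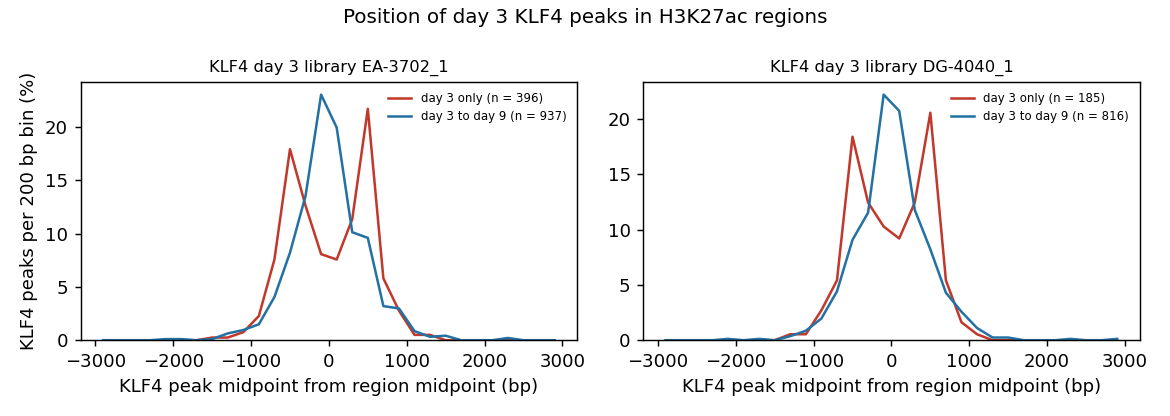
Distance in bp from the midpoint of an H3K27ac region to that of its highest day 3 KLF4 peak (horizontal axis) and percent of the regions with such a peak per 200 bp bin (vertical axis), for the 2 day 3 KLF4 libraries. The regions of day 3 to day 9 have 1 maximum at the centre, and the day 3 only regions have a maximum on each side of it, with 15.7% and 19.5% within 200 bp of the centre.

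Region by region, 162 of the 969 (16.7%) had a KLF4 peak in both day 3 libraries, against 48.4% of all day 3 regions. Another 257 (26.5%, against 23.8% of all day 3 regions) had one in 1 day 3 library only. These were 234 in EA-3702_1 (24.1%, against 21.2%) and 23 in DG-4040_1 (2.37%, against 2.60%). A further 539 (55.6%, against 18.9% of all day 3 regions) had none in any of the 10 libraries. In 11 (1.14%, against 8.98%) a peak was present only after day 3. Of the 162, 91 (56.2%) had no KLF4 peak in any other library, against 58.8% of 272 fibroblast regions, 8.75% of 789 regions of day 3 to day 9, 1.77% of 790 ESC regions and 6.82% of all 9451 day 3 regions with KLF4 in both. A day 6 peak was present in 65 of the 162, a day 9 peak in 25, a serum ESC peak in 8 and a 2i peak in 2; of the 9451 the shares were 88.9%, 78.9%, 71.4% and 65.7%. No region had a KLF4 peak in all 10 libraries. The highest number, chosen after its values were seen, was 9, in a region of Osbpl6, an oxysterol-binding protein (chr2:76566209-76567190). It was followed by 7 in Galnt18 and by 6 in 4 regions, 1 of them in Tshz2.

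Regions with KLF4 on day 3 were also the stronger ones. The 162 with KLF4 in both libraries had a median width of 959 bp and stood at percentile 63.0, 58.5 and 52.3 of the 3 day 3 H3K27ac lists; the 550 with KLF4 in neither had 738 bp and 40.7, 50.0 and 30.2. A day 6 H3K27ac peak was present in 18 (11.1%) of the former and 22 (4.00%) of the latter. By rank, the leading regions with KLF4 in both day 3 libraries and in no other were those at Fndc3b, Phactr1 and Rab11fip2 named above, with KLF4 folds of 8.25 and 2.63, 10.7 and 4.53, and 6.46 and 5.04 in EA-3702_1 and DG-4040_1. They were followed by regions 254 kb from Plpp3, a lipid phosphatase (7.31 and 4.13), 226 kb from Aebp2, a partner of the Polycomb repressive complex (3.92 and 2.98), in Pip4k2a, a lipid kinase (2.39 and 2.64), in Gypc, a red cell glycophorin (4.04 and 3.19), and in Camk2d, a calcium-dependent kinase (8.38 and 3.68). In 7 of these 8 the EA-3702_1 fold was the higher. Over all regions with a peak, the median KLF4 fold was 5.11 in EA-3702_1 and 3.46 in DG-4040_1, against 7.53 and 4.22 in the regions of day 3 to day 9, 8.04 and 4.79 in the ESC regions and 4.33 and 3.19 in the fibroblast regions.

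The regions lay in genes and near start sites less often than all day 3 regions did. Of the 969, 585 (60.4%) overlapped a protein-coding gene, against 47.2% when moved by 1 Mb, 78.2% of all day 3 regions and 56.2% of all 179334 merged regions. The median distance to a RefSeq start was 31.2 kb (33.7 kb when moved), with 24 of 936 within 1 kb (22 when moved) and 164 beyond 100 kb (232 when moved), the 33 regions on chromosome 18 not being analysed here for start sites. It was 27.1 kb, 26.1 kb and 17.9 kb in the other classes and 6.15 kb in all day 3 regions, of which 37.6% were within 1 kb. The nearest merged H3K27ac region of any stage was a median of 228 bp away, and 715 (73.8%) had one within 500 bp, against 53.4% to 61.7% in the other classes. In 295 (30.4%) a region with a peak in a MEF, day 9 or ESC library was that near, against 32%, 50.5% and 54% in the other classes and 40.4% of all day 3 regions. A MEF-acetylated region lay within 10 kb of 57.9% (36.9% when moved) and an ESC-acetylated one within 10 kb of 30.8% (24.9% when moved), against 89.8% and 76% of all day 3 regions and 69.6% and 56.5% of all merged regions, which count a region that itself has such a peak. In the regions of day 3 to day 9, which have neither peak themselves, the shares were 46.7% and 34.3%. The MEF share was 51.3% in the ESC regions, and the ESC share was 29.5% in the fibroblast regions, without matching for width.

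The regions also lay near each other. Another day 3 only region was within 50 kb of 416 (42.9%), against 25.1% in the regions of day 3 to day 9, 39.1% in the fibroblast regions and 26.8% in the ESC regions. The 416 include 202 with another such region within 500 bp, so many were adjoining regions. A neighbour of the same class was that near in 70 of 1094 regions of day 3 to day 9, 127 of 1767 fibroblast regions and 63 of 1110 ESC regions. Joined over gaps of up to 10 kb, the 969 made 798 loci, of which 142 held 2 or more (313 regions in all, at most 5). When H3K27ac peaks up to 500 bp apart were merged before the rule, 635 regions were left.

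Few genes of known reprogramming pathways had such a region. Of 21631 protein-coding genes, 533 (2.46%) had one in the gene or within 10 kb of it. Among 14 gene lists, 10 had 0 genes with one, including all 20 fibroblast and mesenchymal genes, all 14 of AP-1 and immediate early response, all 20 of epidermal differentiation, all 21 of cytokines and innate immunity, all 18 of Wnt, Notch and Hedgehog and all 16 of TGF-beta and BMP signalling. At the background share these lists would hold few such genes in any case. The median number of regions per gene was 0 in each of the 14 lists.

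The 4 genes with one were each the only one of their list. In Tjp1, which encodes the tight junction protein ZO-1 (1 of 23 epithelial genes), the region at chr7:65380746-65382405 had H3K27ac folds of 4.43, 6.32 and 6.5 and KLF4 folds of 20.0 and 9.58 on day 3 and 6.22 and 3.21 on day 6, with no KLF4 peak later. The region 3.85 kb upstream of Tet2, a methylcytosine dioxygenase (1 of 20 pluripotency genes), at chr3:133548990-133549472 had 2.1, 4.38 and 2.69 and no KLF4 peak. That 8.32 kb downstream of Klf12, a repressor of the KLF family (1 of 21), at chr14:99855331-99857859 had 7.39, 5.77 and 5.85 and no KLF4 peak. A pair 5.06 kb and 3.45 kb downstream of Zic1, a neural zinc finger factor (1 of 12), had 2.77, 3.33 and 3.25 and 2.69, 2.66 and 4.21, also without KLF4.

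The genes with the most regions were long. Ptprm, a receptor tyrosine phosphatase of cell contacts, 688 kb long, had 8 over 182 kb, out of 14 regions with H3K27ac in all day 3 libraries; 3 of the 8 had KLF4 in both day 3 libraries and 0 had a day 6 peak. Its highest was at chr17:66747753-66748415, with a mean day 3 fold of 7.56. Rora had 6 of 11, in 2 groups of 4 and 2, of which 1 had a day 3 KLF4 peak. Slit3, a secreted guidance ligand, had 6 of 15, 4 of them with KLF4 in at least 1 day 3 library. Tshz2 had 6 of 15 and Fndc3b 5 of 17.

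Kcnq1, a potassium channel gene that also hosts an imprinted antisense transcript, had 5 of its 6 day 3 regions among the 969, all within 4.00 kb. In genomic order their mean folds were 3.19, 3.29, 6.12, 3.56 and 3.24, the middle one, chr7:143287249-143288428, being the highest and the one with KLF4 in both day 3 libraries. There were 12 genes with 4 regions; the first in alphabetical order were Cacna1d, a calcium channel, and Foxn3, a forkhead factor, with 1 KLF4-overlapped region each and no day 6 peak. In Fmod, 11 kb long, 3 regions lay within 10 kb, upstream and over its start, the highest with a mean fold of 5.11 and KLF4 in both day 3 libraries.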

How the data were processed

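ChIP-seq for H3K27ac (12 libraries) and KLF4 (10 libraries) was analysed; the 13 input libraries were not used here. The authors deposited 1 peak list per library on mm10, each giving for every peak its fold enrichment (a ratio), a score and the −log10 of p and q, so peaks were called per sample. Cutadapt 1.8.1, Bowtie2 2.2.5, MACS2 2.1.1 and deepTools 2.3.6 are named in the submitters' processing notes, with their settings and control not given in the sources used here. The lists end near −log10 p of 2.00 to 2.09, so weak regions depend on depth.

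From these, peaks were merged (1 bp), regions classed by the libraries with a peak, and KLF4 shares computed per library (Python 3.11.15, numpy 2.4.6, pandas 2.3.3). The deposited −log10 p, q and score only ranked, described or filtered peaks within a list. The 9 exact permutation tests were adjusted by Benjamini-Hochberg, with a threshold of 0.05, and their code was tested on simulated data. Alternatives were another score or q limit, equal list lengths, other overlaps and widths, and each library left out; the last were joined by 4 chosen after seeing the data (500 bp about the midpoint, widths of 500 to 1500 bp, no EA-3702, no promoter windows). The members and gene lists were chosen with earlier results of these data known. Named regions were the 12 best by mean rank of day 3 score, the 8 best with KLF4 on day 3 only, those with KLF4 or day 6 H3K27ac in every library (0), those near listed genes, and the 8 genes with most regions. Gene positions and promoter sequences are from RefSeq tables of GRCm38.p6.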

Additional observations from a re-analysis of the deposited data

Results flagged for a closer look

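The gap in KLF4 share between the day 3 only regions and those of day 3 to day 9 differed between stages (F = 44.5, exact permutation p = 0.0254, adjusted 0.0381 over 9 tests): a mean of -50.1 percentage points on day 3 and -3.00 in ESCs in 2i, where the regions of day 3 to day 9 themselves had 3.56%. Permuted within batches, the exact permutation p was 0.150.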

How the results depend on the processing

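At an unadjusted threshold of 0.05, most of the 9 KLF4 results kept their side and direction under their alternatives: 26 of 34 for the 5 stages, 31 of 35 for day 3 against the other stages, 26 of 30 for the slope, 33 of 34 for the gap to the regions of day 3 to day 9 over stages and 33 of 34 over libraries, 20 of 34 and 27 of 34 for the fibroblast regions, and 23 of 34 and 33 of 34 for the ESC regions. The cause of each change below was not tested.

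With the replicate block (permutation within batches, taken from title codes that groups share only in part), the day 3 difference of 27.5 points had p = 0.100 and the F of 44.5 had p = 0.150, while the F of 5.65 for the ESC regions had p = 0.0167. The block changed no other call. Without batch EA-3702, which leaves 5 KLF4 libraries, the day 3 difference was 16.6 points (exact permutation p = 0.200), and the mean gaps were -28.1, -0.0160 and -58.5 points to the regions of day 3 to day 9, the fibroblast and the ESC regions (p = 0.0625, 1.00 and 0.0625); 5 libraries cannot go below 0.0625 and the contrast not below 0.200.

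The gap to the fibroblast regions over stages passed with F = 5.28 (top 50% of KLF4 peaks), 4.30 (q at most 0.01), 4.22 (equal number), 8.37 (50% overlap), 6.13 (200 bp about the KLF4 midpoint), 6.33 and 10.3 (membership from q at most 0.01 and from the top 50%) and 26.0 (widths of 500 to 1500 bp). Its mean over libraries turned to -3.00 points with 50% overlap and -0.894 with 200 bp. The gap to the ESC regions over stages passed with F = 42.0 (equal number), 7.94 (50% overlap), 6.35 (200 bp), 7.58 (membership from the top 50%) and 9.97 (regions as 500 bp).

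Leaving out 1 library at a time gave ranges of 4.33 to 799 for the F over 5 stages, 15.8 to 38.4 for the day 3 difference, -5.80 to -2.67 for the slope; 28.2 to 73.8 for the F of the gap to the regions of day 3 to day 9, 1.98 to 56.7 for that to the fibroblast regions, 3.68 to 8.48 for that to the ESC regions; and -38.3 to -30.2 for the mean gap to the regions of day 3 to day 9, -2.02 to 1.13 for that to the fibroblast regions, -59.6 to -53.9 for that to the ESC regions. The F over 5 stages was 799 without the day 3 KLF4 library DG-4040_1 and 172 without EA-3702_1, and the F of 56.7 came without the day 3 H3K27ac library EA-3702_1.

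The number of regions was 598 (top 50%), 541 (q at most 0.01), 635 (500 bp merging), 2790 (2 of 3 day 3 libraries), 1838 (an interval common to the 3 day 3 peaks, free of the others) and ranged from 968 to 1976 without 1 library, highest without DG-3458_2 and next, 1667, without EA-3702_1 of day 3. The mean day 6 share was 15.6% with equal list lengths and 1.08% to 3.45% without 1 library. Genes with a region nearby were 996 at 50 kb and 325 with membership from q at most 0.01. With 2 or 3 libraries a group and no read depth, a missing peak cannot be told from a weak one.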
